A study of Mus musculus with 2 samples.

Results

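The growth-linked miRNAs miR-21, miR-221, miR-222, miR-191 and miR-425 were followed in mouse embryonic stem (ES) cells through both arms of their hairpins, Mir21a, Mir221, Mir222, Mir191 and Mir425. They are 5 of the 1174 annotated mouse miRNA hairpins that were searched, and they were chosen by name. Each distinct sequence of the small RNA libraries, called a tag, was counted for a hairpin when it matched it without mismatch. All 10 arms had reads, and none of their tags matched another hairpin. Of the 10 arms, 8 reached 1 RPM (reads relative to 1000000 clean reads) in at least 1 library and were among the 529 miRNA arms compared.

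The cells were J1 mouse ES cells, a line kept undifferentiated with LIF, adapted to growth on gelatin, in a medium with serum replacement per the sample labels. One culture received 1 mM AICAR, a cell-permeable nucleoside that is converted to an AMP analogue and activates AMP-activated protein kinase, for 24 h. The control received the same volume of the solvent DMSO for 24 h and hence 0 mM AICAR. The sample title of the control reads J1_U, and it was grouped by its treatment label, DMSO. Each condition had 1 library, so no difference between them has a replicate check. The 95% intervals given with the values cover counting error only, and since PCR copies of 1 molecule were not separated, they are a lower limit of the real error. The DMSO library held 18870345 clean reads and the AICAR library 21091226, so that 1 read was worth 0.0530 and 0.0474 RPM. Reads on miRNA hairpins made up 11.6% of the DMSO and 15.7% of the AICAR library. Tags shorter than 21 nt were 9.49% of these hairpin reads in DMSO and 3.81% in AICAR. The labelled cell type was checked on the miR-290 cluster, the miRNAs that dominate undifferentiated mouse ES cells. Its arms miR-293-3p, with 11544 and 19197 RPM, and miR-290a-5p, with 10961 and 18554 RPM, were among the most abundant in both libraries. Other miRNAs were abundant too, such as let-7c-5p with 3239 RPM in DMSO (rank 8) and 5160 RPM in AICAR (rank 6). The check covered the cluster alone and does not measure how undifferentiated the cultures were.

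A miRNA hairpin is cut by Drosha and Dicer into a short duplex, of which one strand, from the 5′ arm (5p) or the 3′ arm (3p), is usually kept in an Argonaute protein and the other is degraded. The kept strand finds its target mRNAs mainly through its seed, the bases that follow the first one, so that a shifted 5′ end changes the targets whereas a shifted 3′ end does not change the seed. miR-21 is widely known as a growth-promoting miRNA that represses the tumour suppressor Pdcd4. miR-221 and miR-222 repress the cell cycle inhibitor p27 (Cdkn1b) and lie in one cluster, and miR-191 and miR-425 lie in another and are often raised in tumours.

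The mature sequences below, from RefSeq (GRCm38.p6), are shown because the names of the arms and the shared seeds refer to them. No entry for miR-222-5p was found there. Arm counts and end variants were instead measured against the most frequent tag of each arm. That tag differs from RefSeq at the 3′ end in miR-21a-5p and is 24 nt, not 26 nt, in miR-221-5p. In miR-21a-3p it starts 1 nt later, which shifts the seed. The sequences run 5′ to 3′, and the capitals mark the seed, bases 2 to 8.
miR-21a-5p: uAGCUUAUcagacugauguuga
miR-221-3p: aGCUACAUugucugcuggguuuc
miR-222-3p: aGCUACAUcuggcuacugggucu
miR-191-5p: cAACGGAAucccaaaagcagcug
miR-191-3p: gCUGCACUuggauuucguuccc
miR-425-5p: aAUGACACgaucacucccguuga
miR-425-3p: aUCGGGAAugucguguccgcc
miR-221-5p: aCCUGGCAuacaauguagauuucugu
miR-21a-3p: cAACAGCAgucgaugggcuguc

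Of the most abundant arms, miR-221-3p and miR-222-3p share a seed. Their first 8 bases are identical, and without gaps 11 of 23 positions carry the same base, so their reads can be told apart by the bases after the seed. miR-191-5p and miR-425-5p come from one cluster but have different seeds. The seed of miR-21a-5p is also that of Mir21c. Neither Mir21c nor Mir21b, the other paralogue looked for, had a read in either library, which allows at most 3 reads, or 0.159 RPM in DMSO and 0.142 RPM in AICAR.

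On GRCm38, Mir21a lies at chr11:86584067-86584158 on the minus strand, where the annotation places an exon and untranslated region of Vmp1, a gene for a membrane protein of autophagy, on the same strand. Mir221 at chrX:19146294-19146388 and Mir222 at chrX:19146893-19146971, both on the minus strand, overlap no other annotated gene and are separated by 504 nt. Mir191 at chr9:108568319-108568392 and Mir425 at chr9:108568777-108568861, both on the plus strand, lie 384 nt apart in exons of the long non-coding RNA 4833445I07Rik. A further miRNA entry, Gm24083, lies opposite Mir191. No read matched the opposite strand of 4 of the hairpins, Mir191 included, and a single AICAR read matched that of Mir425.

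The levels of the 5 miRNAs spanned a wide range, and none of the 8 tested arms moved past a 2-fold change. Past this threshold, a fold of at least 2 or at most 0.5 between AICAR and DMSO, were 22.9% of all 529 arms, against 0 of these 8. In RPM of clean reads, 5 of the 8 arms were higher in AICAR, each with an interval above 1, and 3 were lower, 1 of them with an interval below 1. Their median fold was 1.15, with a range of 0.596 to 1.57, beside a median of 1.11 over all arms and quartiles of 0.729 and 1.55. Because a larger share of the AICAR library was miRNA, the denominator matters for the direction. Taking miRNA reads as the denominator lowers every log2 fold by 0.45 and the median fold of all arms to 0.814, and only miR-425-5p and miR-425-3p of the 8 then stayed above 1. With that denominator 2 of the 8 were past the threshold, beside 26.3% of all arms. Per clean read, counting only tags with the 5′ end of the arm's most frequent tag put 1 of the 8 past it, beside 23.9%, and a threshold of 1.5-fold put 3 of the 8 past it, beside 46.7%. The 10 arms together held 59338 reads in DMSO and 85415 in AICAR, which were 2.73% and 2.58% of the miRNA reads.

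**Figure D1:**
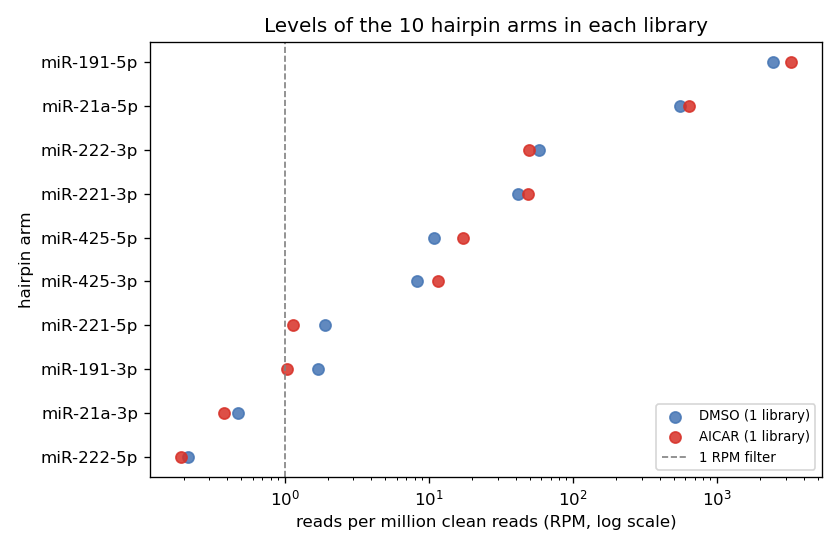
Level of each of the 10 arms in RPM of clean reads (log scale), with 1 point for the DMSO library and 1 for the AICAR library; the dashed line is the filter of 1 RPM. The 5 most abundant arms run from miR-191-5p, at 2465 and 3284 RPM, to miR-425-5p, at 10.9 and 17.2 RPM, in the same order in both libraries.

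miR-191-5p was the most abundant of them. It had 46512 reads, or 2465 RPM, in DMSO and 69263 reads, or 3284 RPM, in AICAR, and made up 78.4% and 81.1% of the reads of the 10 arms. It ranked 12th among all arms in DMSO and 14th in AICAR. Its fold was 1.33 (95% interval 1.32 to 1.35) per clean read, and 33.3% of the 529 arms had a higher fold. Per miRNA read the fold was 0.978 (0.966 to 0.989), so the direction of this miRNA depended on the denominator. The arms nearest to it in level, by distance in log2 RPM over both libraries among 475 arms, were miR-181d-5p and miR-295-3p, with distances of 0.195 and 0.311.

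miR-21a-5p came next. It had 10497 reads, or 556 RPM, in DMSO and 13408 reads, or 636 RPM, in AICAR, and ranked 41st and 40th. Its fold was 1.14 (1.11 to 1.17) per clean read and 0.839 per miRNA read, again on opposite sides of 1. Its fold lay near the middle of all arms, of which 48.4% had a higher one. The nearest arms in level were miR-192-5p, at a distance of 0.146, and miR-34c-5p, at 0.297.

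The partners miR-222-3p and miR-221-3p were far below miR-21a-5p in RPM. miR-222-3p, at 1099 reads or 58.2 RPM in DMSO and 1054 reads or 50.0 RPM in AICAR, was lower in AICAR, with a fold of 0.858 (0.788 to 0.935) per clean read and 0.630 per miRNA read. It is the 1 tested arm whose interval lay below 1 with both denominators. miR-221-3p, at 787 reads or 41.7 RPM and 1025 reads or 48.6 RPM, had a fold of 1.17 (1.06 to 1.28) per clean read but 0.855 per miRNA read. In DMSO miR-222-3p was the higher of the pair, whereas in AICAR they did not differ beyond counting error. The arms nearest in level were miR-301-5p and miR-6236-5p for miR-222-3p, at distances of 0.0927 and 0.131, and miR-99b-3p and let-7i-5p for miR-221-3p, at 0.207 and 0.221.

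miR-425 was the least abundant of the 5 and had the highest folds. miR-425-5p had 206 reads, or 10.9 RPM, in DMSO and 362 reads, or 17.2 RPM, in AICAR, a fold of 1.57 (1.32 to 1.87) that 24.4% of all arms exceeded. Its other arm, miR-425-3p, had 156 reads, or 8.27 RPM, and 245 reads, or 11.6 RPM, a fold of 1.41 (1.14 to 1.73). Both remained above 1 per miRNA read, at 1.15 (0.970 to 1.38) and 1.03 (0.840 to 1.27), but the intervals of both then held 1. miR-219a-1-3p and miR-467c-5p were the arms nearest to miR-425-5p in level, at distances of 0.0399 and 0.148.

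**Figure D2:**
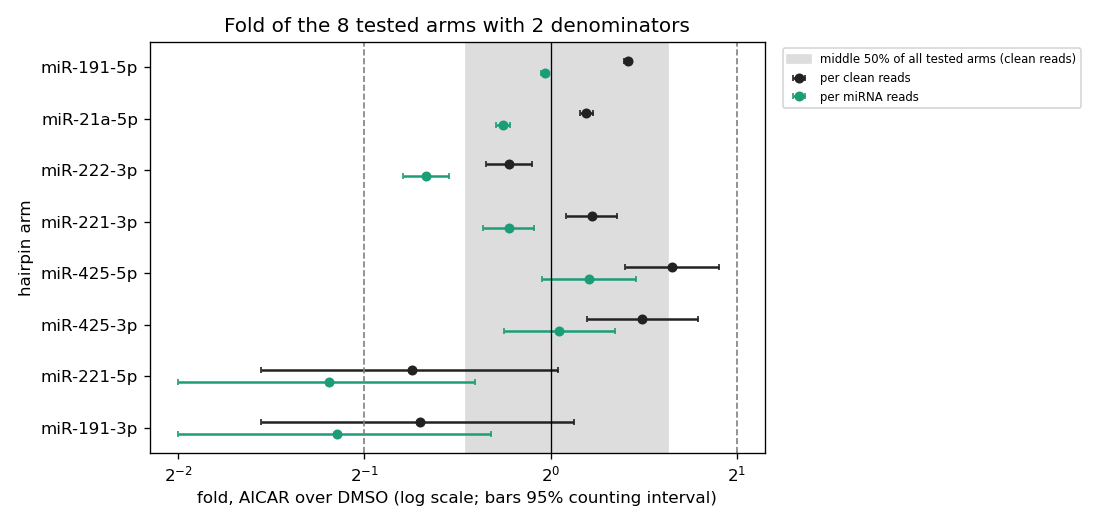
Fold of AICAR over DMSO (log scale) for the 8 tested arms, per clean read in black and per miRNA read in green, with 95% counting intervals; the grey band spans the quartiles of the 529 arms per clean read and the dashed lines mark folds of 0.5 and 2. Per clean read all 8 points lie between 0.596 and 1.57, and per miRNA read miR-221-5p and miR-191-3p lie below 0.5.

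The minor arms were rare in 4 of the hairpins and common in Mir425. miR-425-3p made up 43.1% (38.1 to 48.2) of the arm reads of Mir425 in DMSO and 40.4% (36.5 to 44.3) in AICAR, with intervals that overlap. The 3p arm of Mir21a, with 9 reads in DMSO and 8 in AICAR, was 0.0857% and 0.0596% of its hairpin. miR-222-5p had 4 reads in each library, or 0.363% and 0.378%. These 2 arms were below 1 RPM in both libraries and gave no usable fold.

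For Mir221 and Mir191 the minor arm took a smaller share in AICAR. miR-221-5p had 36 reads in DMSO and 24 in AICAR, which were 4.37% (3.18 to 5.996) and 2.29% (1.54 to 3.38) of the hairpin. These intervals overlap. miR-191-3p had 32 and 22 reads, which were 0.0688% (0.0487 to 0.0970) and 0.0318% (0.0210 to 0.0481), and here the intervals did not overlap. In level, miR-221-5p was at 1.91 and 1.14 RPM, a fold of 0.596 (0.340 to 1.03), and miR-191-3p at 1.70 and 1.04 RPM, a fold of 0.615 (0.341 to 1.09). Both folds per clean read have intervals that hold 1. Per miRNA read they were 0.438 and 0.451, below 0.5 as were 21.6% of all arms with that denominator. Each of these shares rests on at most 36 reads of the minor arm. Reads that end in bases the hairpin does not encode are not among them. Such reads numbered 3 in DMSO and 10 in AICAR for miR-191-3p, and 0 in both libraries for miR-221-5p. Adding them put the fold of miR-191-3p at 0.818 per clean read, so its lower share in AICAR depends in part on the counting rule.

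**Figure D3:**
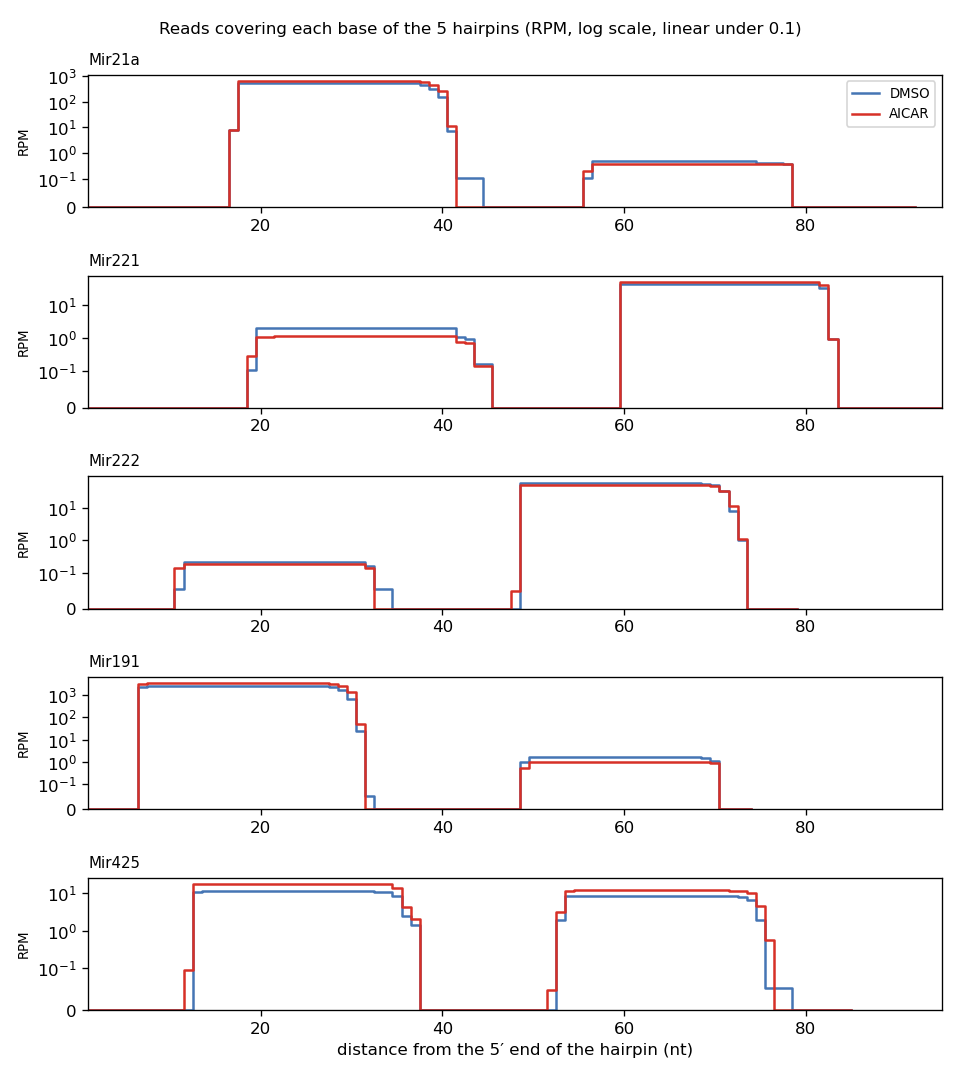
Reads covering each base of the 5 hairpins, in RPM (log scale, linear under 0.1), against the distance from the hairpin's 5′ end in nt; lines are the DMSO library in blue and the AICAR library in red. Each hairpin shows 2 blocks, its 5p and 3p arms, at near equal height in Mir425 and at very unequal height in the other hairpins.

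The 5′ ends of the most abundant arms were mostly uniform, whereas the 3′ ends of some of these arms shifted between the libraries. Ends were measured against a reference tag, the most frequent tag of that arm when both libraries are summed. Tags with the reference 5′ end made up 98.3% of miR-21a-5p in DMSO and 98.5% in AICAR, 99.4% and 99.6% of miR-221-3p, and 99.6% and 99.8% of miR-222-3p. For miR-425-5p both shares were 98.1%. miR-191-5p was less uniform, with 95.6% and 96.5%, since 4.33% of its reads in DMSO and 3.42% in AICAR started 1 nt further in, which shifts the seed. The median over all arms with at least 100 reads was 98.0% in DMSO and 98.3% in AICAR. The lower quartiles were 87.4% and 86.2%, so miR-191-5p lay between these and the medians. miR-425-3p stood below the medians, because 23.1% of its reads in DMSO and 25.7% in AICAR started 1 nt earlier. The rarer arms miR-191-3p, with 59.4% of 32 reads in DMSO and 54.5% of 22 in AICAR, and miR-221-5p stood below the medians too. For miR-221-5p the shares were 94.4% of 36 reads in DMSO and 70.8% of 24 in AICAR.

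At the 3′ end, the longer forms of miR-21a-5p and miR-191-5p took a larger share in AICAR. The reference tag of miR-21a-5p was the 23 nt form, 1 nt longer than the RefSeq sequence. The most frequent forms of both miRNAs, as read in the libraries with T for U, are shown because they differ at the 3′ end alone.
miR-21a-5p, 23 nt: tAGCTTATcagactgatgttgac
miR-21a-5p, 22 nt: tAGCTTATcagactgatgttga
miR-21a-5p, 21 nt: tAGCTTATcagactgatgttg
miR-21a-5p, 20 nt: tAGCTTATcagactgatgtt
miR-191-5p, 24 nt: cAACGGAAtcccaaaagcagctgt
miR-191-5p, 23 nt: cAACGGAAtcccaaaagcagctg
miR-191-5p, 22 nt: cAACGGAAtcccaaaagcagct

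The 23 nt form of miR-21a-5p had 2631 reads in DMSO and 5056 in AICAR, or 25.1% and 37.7% of the arm, a fold of 1.72 (1.64 to 1.80). The 22 nt form had 3034 and 4028 reads, a fold of 1.19, and the 21 nt form 2407 and 2444 reads, a fold of 0.908. The 20 nt form had 2048 and 1421 reads, or 19.5% and 10.6%, a fold of 0.621 (0.580 to 0.665). The fold was thus lower with each base missing at the 3′ end, and the most frequent form was that of 22 nt in DMSO and that of 23 nt in AICAR.

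miR-191-5p showed the same order. Its 24 nt form had 11238 reads in DMSO and 26071 in AICAR, or 24.2% and 37.6% of the arm, a fold of 2.08 (2.03 to 2.12). The 23 nt form had 18740 and 24937 reads, or 40.3% and 36.0%, a fold of 1.19, and the 22 nt form 10998 and 12712 reads, a fold of 1.03. At 21 nt the counts were 1911 and 1530, a fold of 0.716. The most frequent form was thus the 23 nt one in DMSO and the 24 nt one in AICAR, although the summed level changed by 1.33-fold.

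The pair with one seed differed in its 3′ ends. miR-221-3p was mostly in its 23 nt form, at 75.5% in DMSO and 78.6% in AICAR. miR-222-3p was spread over more lengths, with 485 and 463 reads of 23 nt, 332 and 274 of 22 nt, and 126 and 208 of 24 nt. The 24 nt form was 11.5% of the arm in DMSO and 19.7% in AICAR, a fold of 1.48 (1.18 to 1.86), while the 22 nt form had a fold of 0.738. miR-425-5p kept 53.4% and 51.9% of its reads in the 23 nt form.

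In mean length, miR-21a-5p went from 21.64 nt in DMSO to 22.02 nt in AICAR, a gain of 0.377 nt. miR-191-5p gained 0.311 nt and miR-222-3p 0.262 nt, above the upper quartile of 0.239 nt over the 307 arms with at least 100 reads in both libraries. miR-425-3p gained 0.356 nt, whereas miR-221-3p and miR-425-5p gained 0.0371 and 0.0370 nt. A longer mean in AICAR was common to the libraries as a whole, with 87.6% of the 307 arms longer in AICAR and a median gain of 0.103 nt. Tags under 21 nt made up 20.2% of miR-21a-5p in DMSO and 10.9% in AICAR, against medians of 5.03% and 2.43% over all arms with at least 100 reads. The part of this difference in short tags between the libraries in the folds and end shares above was not tested. Counting only tags of at least 21 nt gave folds of 1.28 for miR-21a-5p and 1.36 for miR-191-5p per clean read. Among these tags the reference 3′ end held 31.7% of miR-21a-5p in DMSO and 42.5% in AICAR. The 3′ end 1 nt beyond it held 26.2% and 39.7% of miR-191-5p, and 12.3% and 20.5% of miR-222-3p.

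**Figure D4:**
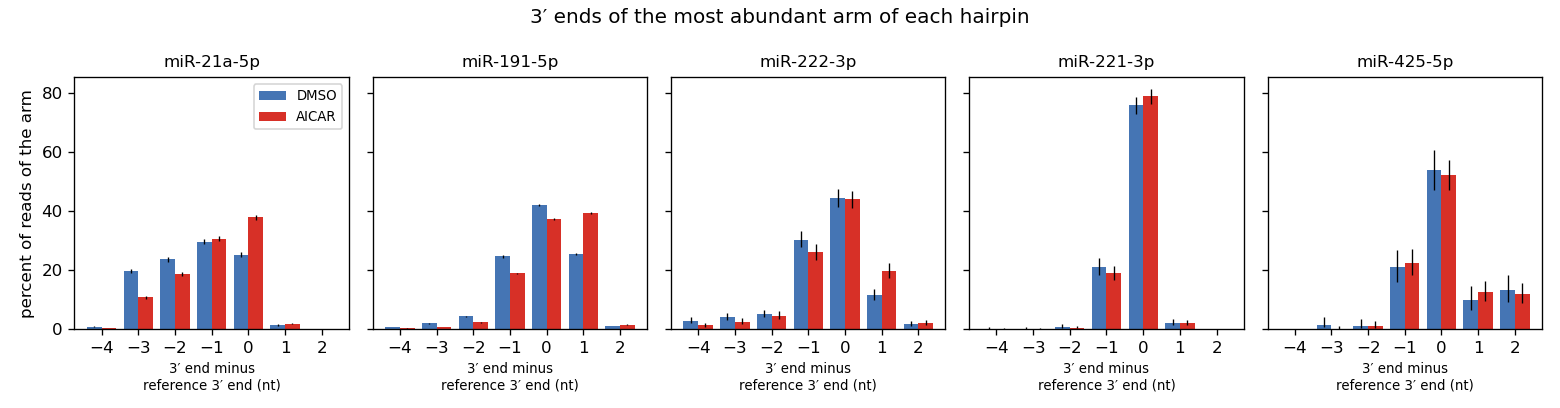
Percent of the reads of the most abundant arm of each hairpin against the position of the 3′ end relative to the reference tag (nt), DMSO in blue and AICAR in red, with 95% Wilson intervals for counting error. The AICAR bars are higher at position 0 of miR-21a-5p (37.9% against 25.2%) and position 1 of miR-191-5p (39.3% against 25.5%). They are also higher at position 1 of miR-222-3p (19.7% against 11.5%). At position 0, miR-221-3p, miR-222-3p and miR-425-5p show overlapping intervals.

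Bases added at the 3′ end that the hairpin does not encode, here tails of 1 to 3 nt, were also counted, although a sequencing error in the last bases would look the same. Tailed reads were 11.3% of miR-191-5p in DMSO and 11.1% in AICAR, and most carried a single added A (7.90% and 7.50%). For miR-21a-5p the tailed shares were 4.25% and 4.42%, with a single A in 2.76% and 3.22%. The pair with one seed differed here too, since a single U was on 3.20% and 3.25% of miR-221-3p but on 0.520% and 0.542% of miR-222-3p. miR-425-3p had 8.77% (5.39 to 14.0) tailed reads in DMSO and 17.5% (13.6 to 22.2) in AICAR, with intervals that overlap. The medians over all arms with at least 100 reads were 6.81% and 9.63%.

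Partners of one cluster come from nearby hairpins, and their ratio within a library does not depend on its depth or on the denominator. It is a ratio of reads, and whether the sequences of both partners are read equally well was not tested. The ratio of miR-221-3p to miR-222-3p was 0.716 (0.653 to 0.785) in DMSO and 0.972 (0.892 to 1.06) in AICAR, a change of 1.36-fold (1.20 to 1.54) towards miR-221-3p. Over all rules for counting tags the change lay between 1.32 and 1.42. Which partner was higher did depend on the rule. With only the tags identical to the reference tag the ratios were 1.22 and 1.74, since miR-222-3p had more of its reads in other lengths. Taking both arms of each hairpin, the ratios were 0.746 and 0.991, a change of 1.33-fold (1.17 to 1.505).

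The ratio of miR-191-5p to miR-425-5p was 226 (197 to 259) in DMSO and 191 (173 to 212) in AICAR. Its change was 0.847-fold (0.714 to 1.006), an interval that holds 1. The interval lay just below 1 under 3 other rules, with identical tags alone (0.615 to 0.986), with 1 mismatch allowed (0.713 to 0.998) and with untemplated tails added (0.713 to 0.999). The mismatch and tail rules add many of the same reads, since a mismatch at the last base is also a tail of 1 nt. Taking both arms the ratios were 128.6 and 114.1, a change of 0.888-fold (0.779 to 1.012). The minor arms differed more, with a ratio of miR-191-3p to miR-425-3p of 0.205 in DMSO and 0.0898 in AICAR. This change of 0.438-fold (0.245 to 0.781) rests on 32 and 22 reads of miR-191-3p. Tailed reads, 3 in DMSO and 10 in AICAR for miR-191-3p and 15 and 52 for miR-425-3p, are not in these counts.

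**Figure D5:**
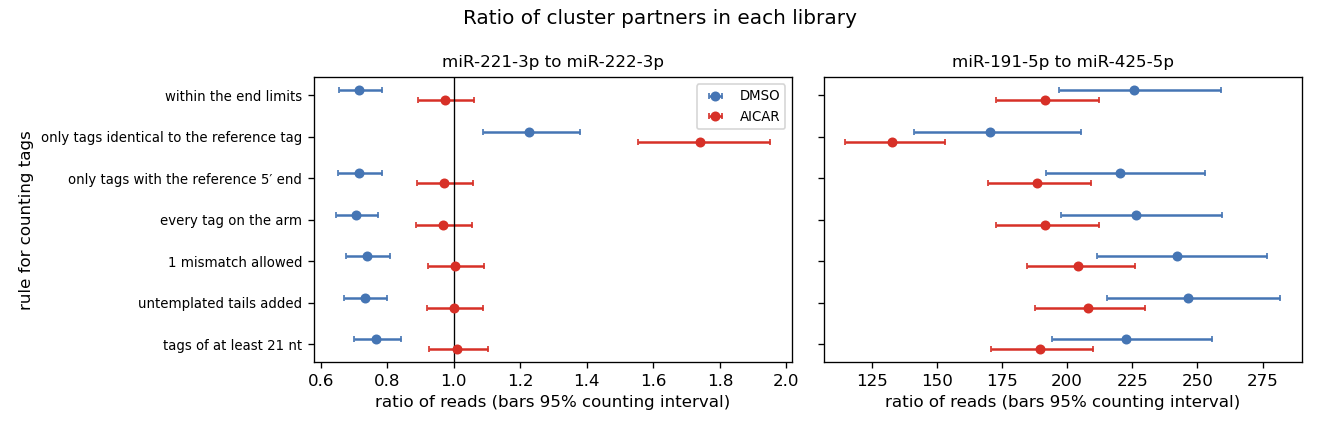
Ratio of reads of the cluster partners in the DMSO library (blue) and the AICAR library (red) under 7 rules for counting tags, with 95% counting intervals. For miR-221-3p to miR-222-3p the AICAR point lies right of the DMSO point under each rule, and only identical tags put both ratios above 1; for miR-191-5p to miR-425-5p the AICAR point lies left under each rule.

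Other miRNAs linked to growth, chosen as a list, did not share one size of change. Of its 14 tested arms, 2 were past the threshold upwards and 0 downwards, with a median fold of 1.24 per clean read. Over all 529 arms, 12.9% were past it upwards and 10% downwards, so the upward count of the list is near the background. Both were arms of Mir210, a hairpin known for its response to low oxygen. miR-210-3p was at 101.8 and 279 RPM, a fold of 2.74, and miR-210-5p at 8.002 and 16.97 RPM, a fold of 2.12. Below the threshold were miR-22-3p with a fold of 1.962, miR-31-5p with 1.83, miR-155-5p with 1.26, miR-126a-5p with 1.25, miR-7-5p with 1.22, miR-146b-5p with 1.05, miR-199a-3p with 0.989 and miR-335-5p with 0.863.

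miRNAs often used as references in PCR panels, among which miR-191 is counted, had higher folds in their most abundant arms than miR-191-5p. Of the 8 tested arms of Mir16, Mir93, Mir103 and Mir423, 0 were past the threshold, beside 22.9% of all 529 arms. The median fold of the 8 was 1.35, with a range of 0.644 to 1.98 per clean read. miR-103-3p had a fold of 1.54, miR-423-5p 1.64, miR-93-5p 1.80 and miR-16-5p 1.98, each above the 1.33 of miR-191-5p, while the 4 minor arms lay below it. Of the ES cell miR-290 cluster, 10 arms of Mir290a, Mir291a, Mir293, Mir294 and Mir295 were on the list. Of these, 2 were past the threshold upwards, beside 12.9% of all 529 arms. The median fold of the 10 was 1.76 per clean read. All 9 annotated hairpins of the cluster, counted after the values were seen, gave 14 tested arms. Of those, 4 were past the threshold upwards, beside the same 12.9%. The median fold of the 14 was 1.80 per clean read.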

How the data were processed

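Small RNA of 1 DMSO and 1 AICAR culture of J1 cells was sequenced. The authors discarded reads that were of low quality, contaminants or under 18 nt, and deposited the raw counts of each distinct tag with its length and sequence, without normalization. The build in the submitters' processing notes is mm9. Coordinates given here are from GENCODE vM21 for GRCm38, whose hairpin sequences for the 5 members equal those of RefSeq.

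Tags were matched without mismatch to 1174 hairpins. The most frequent tag of an arm, summed over both libraries, was its reference tag, and tags starting within 2 nt and ending within 4 nt of it were counted. The denominator was all clean reads, 18870345 in DMSO and 21091226 in AICAR. Fold intervals (95%) were exact binomial, share intervals Wilson and ratio intervals on the log scale from the 4 read counts. No p-value was computed, because each group had 1 library. Alternatives were miRNA reads, edgeR TMM or median-ratio scaling as denominator, other rules for tags, and other filters and folds. Python 3.11.15, numpy 2.4.6, scipy 1.17.1, R 4.3.3 and edgeR 4.0.16 were used, and scripts were tested on simulated data.

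All 10 member arms were named, with the most abundant tested arm of each listed hairpin and the 2 arms nearest in level to each member's most abundant arm; miR-210-5p, outside this rule, was named after its values were seen. The members and lists were chosen with earlier results of these data known. Mir590 and Mir146a had no entry under these symbols and were not analysed here. The annotation has Mir292a as Mir292, which was therefore missing from the marker list. The list of relatives of miR-21 (Mir21b, Mir21c and Mir590) had 0 tested arms.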

Additional observations from a re-analysis of the deposited data

How the results depend on the processing

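Each group had 1 library, so nothing here measures the spread between cultures. No paired analysis was possible because each condition has a single library. The count of tested arms past the threshold, 0 per clean read, was 2 of 8 relative to miRNA reads (miR-221-5p and miR-191-3p, beside 26.3% of all arms), 1 with only tags of the reference 5′ end (miR-221-5p, beside 23.9%) and 3 at a fold of 1.5 or its inverse (these 2 and miR-425-5p, beside 46.7%). It was 0 under the other settings. Over 10 alternatives, the folds of miR-425-5p (1.15 to 1.60) and miR-425-3p (1.03 to 1.55) stayed above 1 and those of miR-222-3p (0.630 to 0.889), miR-221-5p (0.438 to 0.826) and miR-191-3p (0.451 to 0.895) below 1. Those of miR-21a-5p (0.839 to 1.72), miR-221-3p (0.855 to 1.21) and miR-191-5p (0.978 to 1.36) were above 1 in 9 and below 1 relative to miRNA reads. The alternative of tags on 1 hairpin only could not change any of these folds, since none of the tags matched another hairpin. For miR-221-5p, counting every tag on the arm, mismatches, tails or only tags of at least 21 nt also left the fold at 0.596. Depth limits the minor arms, of which 2 had fewer than 10 reads in each library.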
